A study of Mus musculus with 6 samples.

Results

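The genes described are 41 genes of the contractile apparatus of striated muscle and of its calcium release system, taken by symbol from a table of 21899 genes. They comprise 6 sarcomeric myosin heavy chains, 3 myosin light chains, 3 myosin-binding proteins, 2 sarcomeric actins, 7 troponins, 2 giant filament proteins, 4 Z-disc proteins, 2 M-band proteins, 7 genes of calcium handling and the muscle membrane, and 5 muscle enzyme and oxygen-carrier genes. All 41 symbols were found. Of these, 40 passed the filter on low counts. Trdn (triadin), which anchors the calcium store to its release channel, was not tested, with estimated counts of 4, 3 and 1 in the PBS libraries and 5, 4 and 5 in the 5-FU libraries. The libraries were mRNA-enriched RNA-seq libraries of C2C12 cells, an established mouse skeletal muscle line that grows as myoblasts and can fuse into myotubes. The labels call the cells myocytes of wild type genotype. Neither the culture medium nor any day of differentiation is given by the labels. Control cells received PBS (3 libraries), and treated cells received 5-fluorouracil (5-FU), a pyrimidine analogue used in chemotherapy, at 5 µg/L for 24 hours (3 libraries). No time is given for PBS. Whether the 3 libraries of a group were grown as separate cultures is not stated, and the p-values below then cover a spread that may be technical. The cell line field reads C2C12 for 4 libraries but C2C13 for 5-FU replicate 2 and C2C14 for 5-FU replicate 3. All titles give C2C12 and were followed.

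In striated muscle, myosin heavy chains with their light chains form the thick filament, and actin with tropomyosin and the troponins forms the thin filament. Depolarisation opens the ryanodine receptor of the sarcoplasmic reticulum through a voltage sensor in the surface membrane. The released calcium binds troponin C and lets myosin pull on actin. C2C12 myoblasts hold little of this machinery until they stop dividing and differentiate, when embryonic and cardiac forms of several proteins appear before adult fast and slow forms.

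Library totals ran from 19583312 to 23016735 estimated counts. Levels are given as CPM, estimated counts relative to the TMM-scaled library total, for comparisons of one gene between libraries, and as TPM, the transcript abundance that also corrects for length, for comparisons between genes. Listed markers of skeletal myoblasts and myocytes summed to 5020 to 5250 CPM in the PBS libraries and 5420 to 6280 CPM in the 5-FU libraries, and 1 of 10, Cdh15, rose. Cardiomyocyte markers summed to 76.8 to 83.6 CPM with PBS and 80.4 to 83.5 CPM with 5-FU, with Tbx5 at 0. Smooth muscle markers were abundant, at 3830 to 4220 CPM with PBS and 3260 to 3310 CPM with 5-FU, and 3 of the 7 tested fell. Fibroblast markers summed to 1650 to 1740 CPM with PBS and 1660 to 1820 CPM with 5-FU, and adipocyte markers to 16.7 to 18.1 CPM and 17.1 to 21.1 CPM, with Lep at 0. Endothelial markers stayed between 0.439 and 1.35 CPM and macrophage markers between 3.65 and 7.59 CPM. A gene was called changed at an adjusted p below 0.05 in edgeR's quasi-likelihood test. By this rule 866 of 12135 tested genes were called (7.14%), of which 470 were higher with 5-FU (3.87%) and 396 lower (3.26%).

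The sarcomere genes separated the 5-FU libraries from one another more than they separated 5-FU from PBS. The median over the 40 tested members of log2(CPM divided by the gene's mean over 6 libraries) was -0.06, 0.11 and -0.17 in PBS replicates 1, 2 and 3. In the 5-FU libraries it was -0.08 in replicate 1, 0.43 in replicate 2 and -0.40 in replicate 3. Thus 5-FU replicate 2 stood above every PBS library and 5-FU replicate 3 below every one, while replicate 1 lay within their range. The PBS medians ran in the same replicate order, with replicate 2 highest and replicate 3 lowest, over a narrower range. Whether same-numbered libraries share a batch was not tested. Summed over all members, the level was 5608, 6319 and 5341 TPM with PBS and 5969, 8140 and 5096 TPM with 5-FU.

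The order over the 5-FU libraries recurred in nearly every member. Among the 5-FU libraries, replicate 2 was the highest and replicate 3 the lowest for 36 of 40 tested members (90.0%), against 16.6% of all genes tested. The 4 exceptions were Ttn, Neb, Myom1 and Eno3. Over all 6 libraries, 5-FU replicate 2 was the highest for 29 members (72.5%, against 20.6% of all genes), and 5-FU replicate 3 was the lowest for 28 (70.0%, against 15.3%). The ratio of 5-FU replicate 2 to replicate 3 had a median of 1.71 over the members and 1.0 over all genes. It ran from 0.994 for Eno3, the muscle form of the glycolytic enzyme enolase, to 2.87 for Mybpc2, the fast myosin-binding protein C. Both outlying libraries are those whose cell line field differs from C2C12. The field counts upward, as C2C12, C2C13 and C2C14, over 5-FU replicates 1, 2 and 3. The medians of the PBS libraries, whose field always reads C2C12, had the same replicate order over a narrower range. The part of the difference in the field in this order was not tested. In bulk samples, fewer cells of a type and less RNA per cell cannot be told apart.

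**Figure D1:**
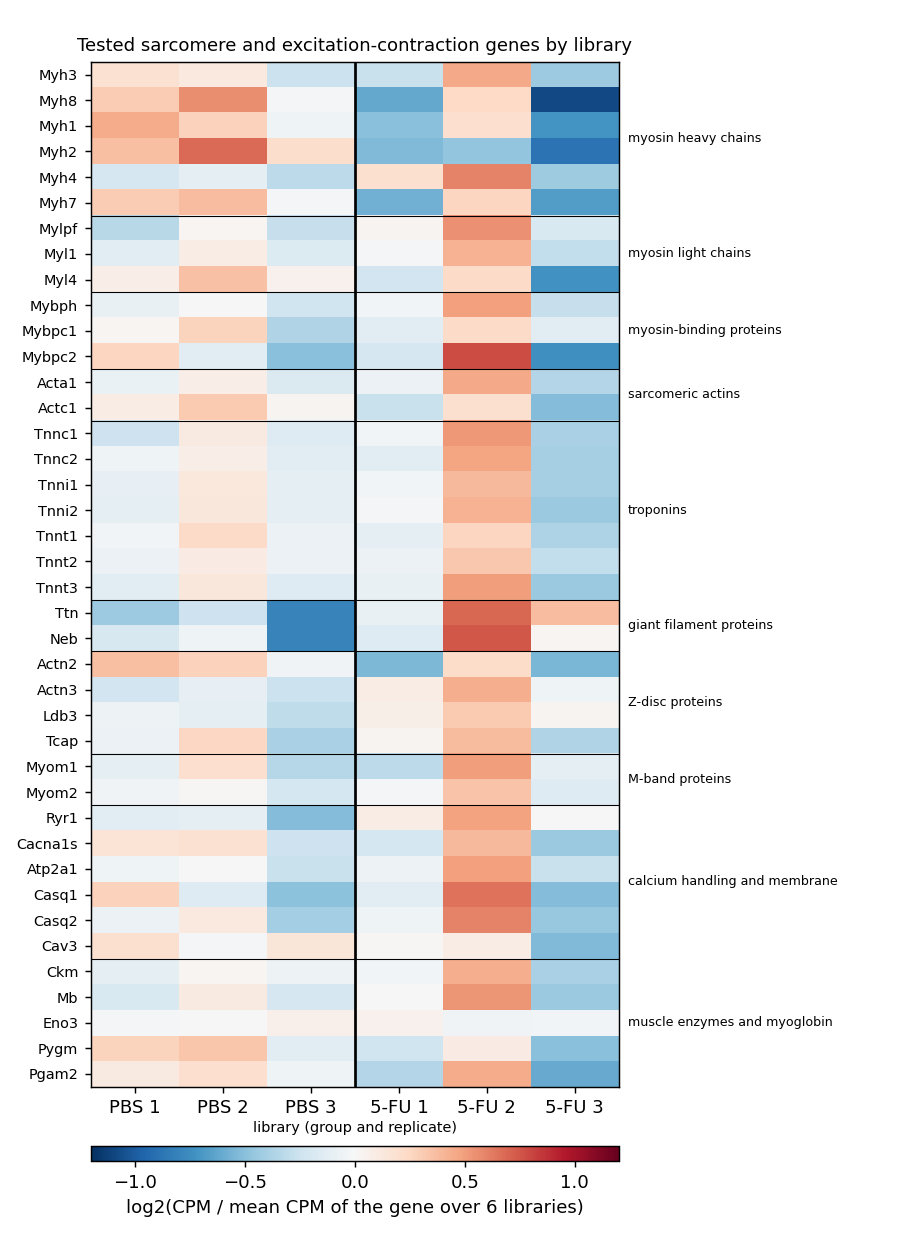
Each row is a tested sarcomere or excitation-contraction gene and each column a library. Colour shows log2 of the gene's CPM divided by its mean over the 6 libraries. The column of 5-FU replicate 2 is red in nearly every row and that of replicate 3 blue. The myosin heavy chains Myh8, Myh1 and Myh7 are blue in 5-FU replicates 1 and 3, and Myh2 is blue in every 5-FU replicate.

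The spread within a group was correspondingly wide. Among genes with a mean of at least 10 CPM, the median SD of log2 CPM over the PBS libraries was 0.16 for 30 members and 0.07 for all 8955 such genes. Over the 5-FU libraries it was 0.40 for the same members and 0.07 for all genes. In the 5-FU group, 28 of 30 members exceeded the 95th percentile of all genes, which lay at 0.20. In the PBS group 13 of 30 exceeded it, where it lay at 0.17. The listed markers of skeletal myoblasts and myocytes had medians of -0.12, -0.05 and -0.12 with PBS and 0.04, 0.35 and -0.08 with 5-FU on the same log2 scale, so that 5-FU replicate 2 was the highest there too. Ckm and Tnnt3 belong to both lists. The median of the myogenic regulators and fusion genes was -0.05, -0.04 and -0.14 with PBS and 0.02, 0.13 and 0.01 with 5-FU. That list is not separate from the skeletal markers, since Myod1, Myf5, Cdh15, Chrna1, Myog, Mymk and Mymx are in both. Of 103 tested other genes of the same pathways, 46 (44.7%) had 5-FU replicate 2 highest and replicate 3 lowest within the group.

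**Figure D2:**
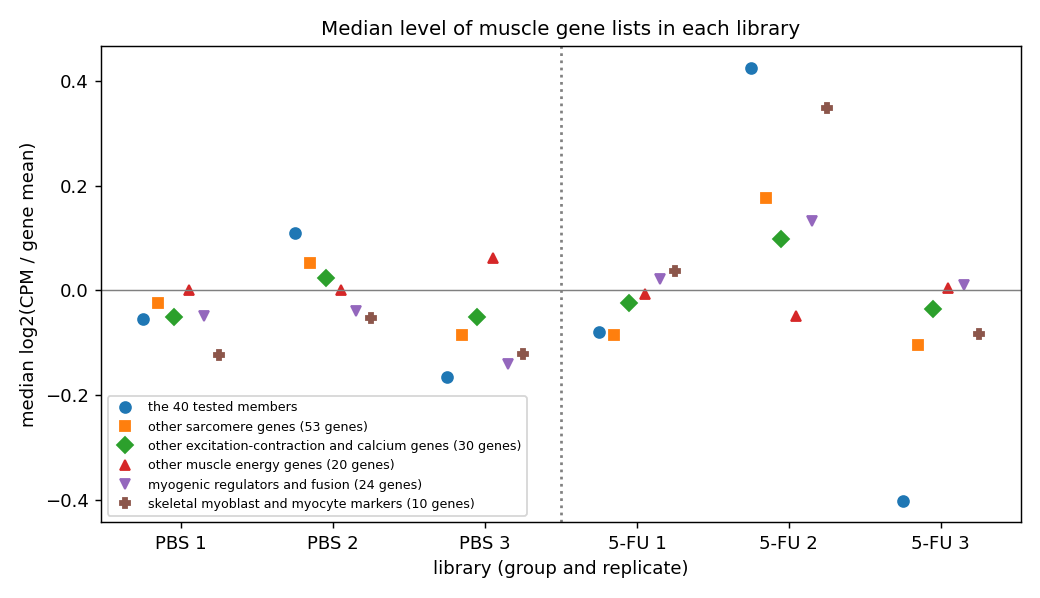
Each point is one library, and the vertical axis gives the median over a gene list of log2(CPM divided by the gene's mean over 6 libraries). The sarcomere and excitation-contraction genes run from -0.40 in 5-FU replicate 3 to 0.43 in 5-FU replicate 2, a wider range than that of any of the other lists drawn.

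Against this spread, 4 of 40 tested members were called. Ttn, Actn3 and Ldb3 rose and Myh2 fell, a share read beside the 7.14% of all genes. The log2 fold change was positive in 25 members and negative in 15, with a median of 0.08 against 0.00 for all genes. That median was -0.16 without 5-FU replicate 2 and 0.24 without 5-FU replicate 3. The groups did not overlap in CPM for 5 tested members, namely Ttn, Actn3, Ldb3 and Ryr1 above PBS and Myh2 below it. Over all genes tested 29.3% had groups that did not overlap. Standard errors of the members' log2 fold changes ran from 0.04 for Eno3 to 0.36 for Mybpc2. Leaving out 1 library gave between 0 and 7 called members, and between 249 and 656 called genes over all genes. None was called by edgeR without PBS replicate 1, against 498 of all genes. There 7 members had an unadjusted p below 0.05, for which the share over all genes is not given here. Without 5-FU replicate 2, 7 were called, namely Ttn, which was higher, and Actn2, Myh7, Myh8, Myh1, Myl4 and Actc1, which were lower. That refit called 499 of all genes, against 866 in the fit of all 6 libraries.

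**Figure D3:**
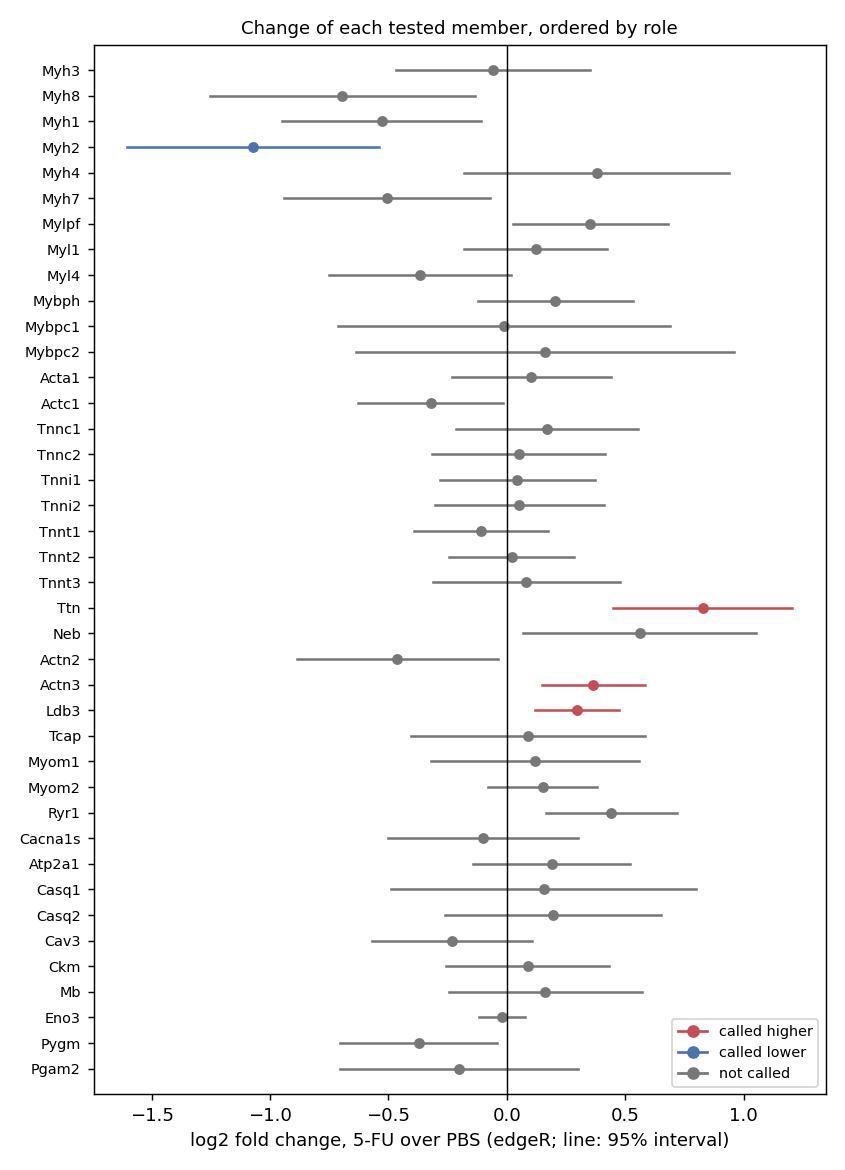
Points give edgeR's log2 fold change of 5-FU over PBS for each tested gene, grouped by role, and lines the 95% interval, with 3 libraries in each group. The called genes are coloured: Ttn at 0.83, Actn3 at 0.37 and Ldb3 at 0.30 lie above 0, and Myh2 at -1.07 lies below.

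Of the 6 sarcomeric myosin heavy chains, the motor proteins of the thick filament, Myh2 fell and the others were not called. The median log2 fold change of the family was -0.52, with 5 of 6 below 0. Myh2 (ENSMUSG00000033196), the adult fast IIa chain, had 1.68, 2.10 and 1.52 CPM with PBS and 0.909, 0.941 and 0.709 CPM with 5-FU. Every 5-FU library lay below every PBS library. The mean went from 1.77 ± 0.298 to 0.853 ± 0.126 CPM (SD, n = 3), a log2 fold change of -1.07 (SE 0.24, edgeR adjusted p = 0.0249). It rests on few reads, with estimated counts of 35.3, 46.5 and 31.1 with PBS and 21.1, 18.5 and 15.2 with 5-FU. Of 6 refits that each left out 1 library, those without PBS replicate 3 and without 5-FU replicate 1 kept the call, with adjusted p from 0.0419 to 0.123 over the 6. The authors' deposited table gives Myh2 mean TPM values of 0.577 and 0.286, a log2 fold change of -1.01 and an FDR of 0.0982. It lists no other member.

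Myh1, Myh7 and Myh8 had negative values of similar size that were not called. Myh1 (ENSMUSG00000056328), the adult fast IIx chain, had 68.6, 61.0 and 48.5 CPM with PBS and 35.5, 57.9 and 30.7 CPM with 5-FU. Its log2 fold change was -0.53 (SE 0.19, edgeR adjusted p = 0.119). Myh7 (ENSMUSG00000053093), the slow and cardiac beta chain, had 31.8, 33.4 and 25.4 CPM against 17.3, 30.8 and 16.2 CPM. In both genes 5-FU replicates 1 and 3 lay below all PBS libraries and replicate 2 lay among them. Myh8 (ENSMUSG00000055775), the perinatal chain, showed the same arrangement, with 16.1, 19.1 and 12.9 CPM against 8.49, 15.3 and 6.15 CPM. The log2 fold changes of Myh7 and Myh8 were -0.51 (SE 0.20, edgeR adjusted p = 0.143) and -0.70 (SE 0.26, edgeR adjusted p = 0.123). Without 5-FU replicate 2, edgeR's adjusted p was 0.00486 for Myh1, 0.00278 for Myh7 and 0.00714 for Myh8.

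Myh3 and Myh4 stood apart from these, with values near and above 0 that were not called. Myh3 (ENSMUSG00000020908), the embryonic chain, had 151, 144 and 112 CPM with PBS and 111, 183 and 98.8 CPM with 5-FU. The groups overlapped, and its log2 fold change was -0.06 (SE 0.19, 95% interval -0.47 to 0.35, edgeR adjusted p = 0.879). Myh4 (ENSMUSG00000057003), the adult fast IIb chain, was scarce at 1.58, 1.67 and 1.46 CPM with PBS and 2.07, 2.75 and 1.35 CPM with 5-FU. Its log2 fold change was 0.38 (SE 0.26, edgeR adjusted p = 0.398).

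Taken as a share of the TPM of the 6 heavy chains, a measure that divides out the overall level of the family in each library, the composition had no overlap between the groups. Myh3 made up 55.7%, 55.2% and 55.6% with PBS and 63.6%, 62.5% and 64.4% with 5-FU. The difference was 7.96 percentage points between means of 55.5% ± 0.3 and 63.5% ± 0.953 (SD, n = 3). Myh1 made up 25.6%, 23.2% and 24.1% with PBS and 20.3%, 20.7% and 20.0% with 5-FU. Myh7 made up 11.5%, 12.9% and 12.4% against 9.72%, 10.4% and 10.4%, and Myh8 5.92%, 7.28% and 6.29% against 4.77%, 5.24% and 3.93%, again with no overlap. The scarce Myh2 went from a mean of 0.727% to 0.436% and Myh4 from 0.650% to 1.01%. Myh3 thus held a larger share in each 5-FU library although its own level overlapped between the groups. The shares of one family sum to 100, so they are not independent. An exact two-sided permutation test of 3 against 3 libraries cannot go below p = 0.1, which each of these shares reached. The p adjusted over the 19 shares computed was 0.173.

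The adult fast genes Myh1 and Myh2 lie near each other on chromosome 11 and are alike in sequence, so counts of one can hold reads of the other. All 6 heavy chains had estimated counts that were not whole numbers in at least 1 library. In GENCODE M21, 7.92% of the 100-base windows of the Myh2 coding sequence also occur in Myh1, and Myh3 shares no such window with the other chains. For Myh7, 12% of the windows also occur in Myh6, which is not among the 6 chains. Counts of Myh7, and its share, can therefore hold reads of Myh6. The longest run common to Myh2 and Myh1 has 268 bases and begins at coding position 2711 in both. It is shown because a read from it cannot be assigned to one gene:
Myh2 and Myh1: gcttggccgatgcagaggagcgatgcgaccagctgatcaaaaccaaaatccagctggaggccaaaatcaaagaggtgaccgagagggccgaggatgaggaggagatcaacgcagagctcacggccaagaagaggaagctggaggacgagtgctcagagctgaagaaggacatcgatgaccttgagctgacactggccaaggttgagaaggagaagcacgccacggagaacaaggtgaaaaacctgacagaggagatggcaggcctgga
The 250 bases before the start of each gene, from RefSeq on GRCm38.p6, are given 5′ to 3′ on the gene's strand, with motif matches in capitals, because Myh2 was called and its neighbour was not.
Myh1 (chr11:67199852-67200101, plus strand): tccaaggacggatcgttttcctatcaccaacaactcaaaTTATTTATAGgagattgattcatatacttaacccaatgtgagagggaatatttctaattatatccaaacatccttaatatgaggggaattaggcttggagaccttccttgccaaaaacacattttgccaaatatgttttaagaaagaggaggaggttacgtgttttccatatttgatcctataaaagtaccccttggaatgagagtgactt
Myh2 (chr11:67170777-67171026, plus strand): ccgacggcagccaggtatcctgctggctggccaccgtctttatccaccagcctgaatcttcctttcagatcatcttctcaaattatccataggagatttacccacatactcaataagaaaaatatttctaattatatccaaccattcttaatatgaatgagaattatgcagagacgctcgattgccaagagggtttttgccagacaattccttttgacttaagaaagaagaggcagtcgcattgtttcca
The capitals in Myh1 mark a match at -211 to the site of MEF2, a factor of muscle gene transcription. No E-box, MEF2 site or CArG box was matched in the Myh2 window, which says only that these letters are not there.

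The sarcomeric actins of the thin filament were among the most abundant members, and neither was called. Acta1 (ENSMUSG00000031972), skeletal alpha-actin, had 617, 687 and 580 CPM with PBS and 621, 895 and 510 CPM with 5-FU. Its 5-FU libraries spanned all PBS libraries, and the log2 fold change was 0.10 (95% interval -0.23 to 0.44, edgeR adjusted p = 0.723). Actc1 (ENSMUSG00000068614), cardiac alpha-actin, which embryonic skeletal muscle also uses, had 165, 192 and 158 CPM with PBS and 129, 177 and 108 CPM with 5-FU. Here 5-FU replicates 1 and 3 lay below every PBS library, and the log2 fold change was -0.32 (SE 0.14, edgeR adjusted p = 0.187).

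The proportion of the actins differed between the groups by more than its spread between libraries. Acta1 made up 79.3%, 78.6% and 79.0% of their summed TPM with PBS and 83.2%, 83.9% and 83.0% with 5-FU. The mean went from 79.0% ± 0.332 to 83.3% ± 0.483 (SD, n = 3), a difference of 4.38 percentage points with exact permutation p = 0.1, the smallest possible. 5-FU replicate 2, with the highest actin level, and replicate 3, with the lowest, had nearly the same share. The promoters are shown because both genes followed the same order over the 5-FU libraries and yet differed in proportion, a choice made after their values were seen.
Acta1 (chr8:123894776-123895025, minus strand): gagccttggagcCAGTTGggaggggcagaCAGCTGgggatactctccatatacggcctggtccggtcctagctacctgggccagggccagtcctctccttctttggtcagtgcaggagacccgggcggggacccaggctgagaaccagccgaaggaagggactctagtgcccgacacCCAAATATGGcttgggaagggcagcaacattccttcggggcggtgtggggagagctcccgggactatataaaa
Actc1 (chr2:114052876-114053125, minus strand): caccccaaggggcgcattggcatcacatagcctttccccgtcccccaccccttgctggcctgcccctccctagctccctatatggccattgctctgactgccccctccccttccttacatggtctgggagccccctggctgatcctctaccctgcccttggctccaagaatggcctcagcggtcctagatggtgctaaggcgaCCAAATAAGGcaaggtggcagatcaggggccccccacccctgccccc
Capitals mark a CArG box, the binding motif of serum response factor, at -73 in Acta1 and at -47 in Actc1, and E-boxes at -238 and -221 in Acta1. E-boxes (CANNTG, which reads the same form on both strands, the core of sites of MyoD family factors) were found in 28 of the 34 member genes with a RefSeq promoter. Counted by window, they were in 33 of 40 member windows and 66.2% of all 32851 promoter windows. A CArG box was found in 5 of these genes, in 6 of 40 member windows and in 1.47% of all windows. A MEF2 site was found in 6 genes, in 6 of 40 member windows and in 1.69% of all windows, each on either strand. These are letter matches only.

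**Figure D4:**
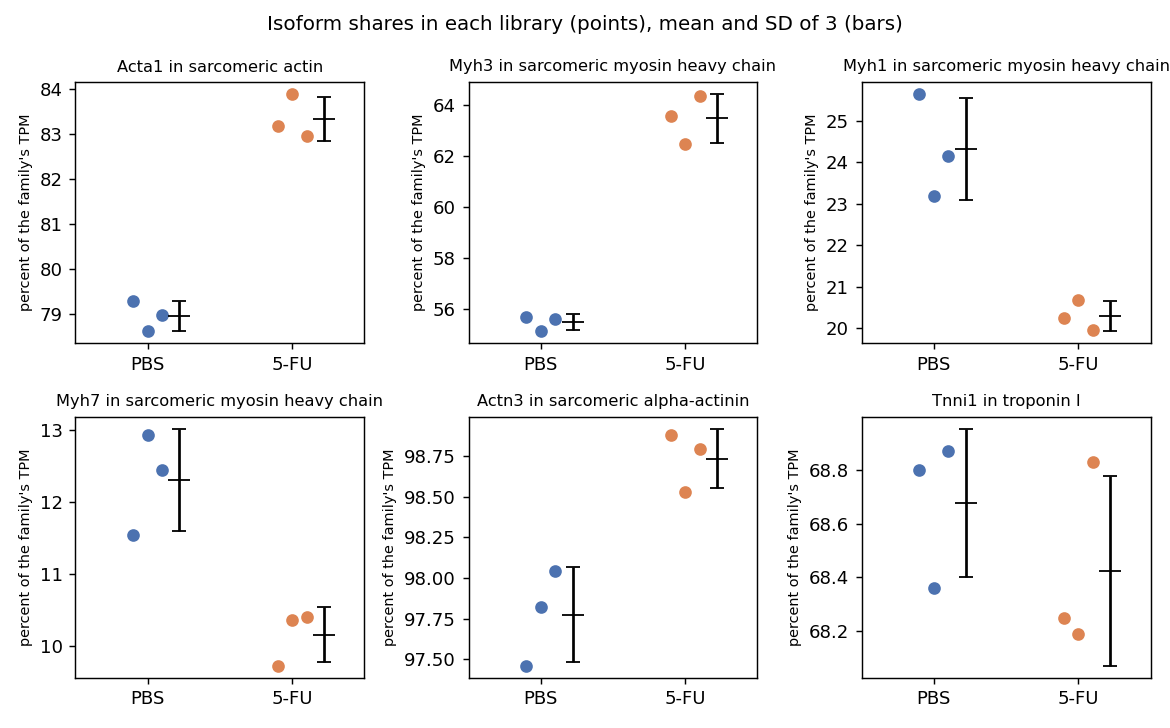
Each point is the share in one library, in percent of the summed TPM of its protein family, and bars give the mean and SD of 3 libraries. The 6 vertical axes do not start at 0 and differ in range. The shares of Acta1 and Myh3 lie higher in all 3 5-FU libraries and that of Myh1 lower, while the troponin I share of Tnni1 overlaps between groups.

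None of the 3 myosin light chains, which stiffen and regulate the lever arm of myosin, was called. Mylpf (ENSMUSG00000030672), the fast regulatory light chain, had the highest mean TPM of all members over the 6 libraries, although Acta1 was higher in PBS replicate 1. It had 326, 415 and 337 CPM with PBS and 419, 597 and 361 CPM with 5-FU, a log2 fold change of 0.35 (SE 0.15, edgeR adjusted p = 0.177). Myl1 (ENSMUSG00000061816), the fast essential light chain, had 158, 183 and 154 CPM against 169, 229 and 140 CPM, a log2 fold change of 0.12 (SE 0.14, edgeR adjusted p = 0.630). The embryonic and atrial essential chain Myl4 (ENSMUSG00000061086) had 79.6, 96.1 and 77.9 CPM against 63.9, 88.1 and 45.5 CPM. Its log2 fold change was -0.37 (SE 0.18, edgeR adjusted p = 0.229), opposite in sign to that of Mylpf. All 3 genes had groups that overlapped.

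The myosin-binding proteins, which lie along the thick filament, were not called. Mybph (ENSMUSG00000042451), myosin-binding protein H, had 176, 188 and 158 CPM with PBS and 184, 265 and 154 CPM with 5-FU. Its log2 fold change was 0.20 (SE 0.15, edgeR adjusted p = 0.440). Mybpc1 and Mybpc2, the slow and fast forms of myosin-binding protein C, had at most 2.14 CPM in any library. The 95% interval of Mybpc2, from -0.64 to 0.96, includes large changes in either direction.

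The 7 troponins, the calcium switch of the thin filament, had log2 fold changes between -0.11 and 0.17, and none was called. The groups overlapped for each. Tnnc1 (ENSMUSG00000091898), slow and cardiac troponin C, had 146, 188 and 157 CPM with PBS and 170, 250 and 133 CPM with 5-FU. Tnnt2 (ENSMUSG00000026414), cardiac troponin T, had 143, 160 and 143 CPM against 143, 188 and 122 CPM. Tnni1 (ENSMUSG00000026418), slow troponin I, had 117, 137 and 116 CPM against 122, 164 and 94.8 CPM. In each, 5-FU replicate 2 lay above every PBS library and replicate 3 below every one. The log2 fold changes were 0.17 for Tnnc1 (SE 0.17), 0.02 for Tnnt2 (SE 0.12) and 0.04 for Tnni1 (SE 0.15), with edgeR adjusted p of 0.593, 0.940 and 0.884.

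The fast forms and slow troponin T repeated this order. Tnnc2 (ENSMUSG00000017300), fast troponin C, had 31.0, 33.9 and 29.4 CPM with PBS and 29.4, 44.4 and 24.3 CPM with 5-FU, a log2 fold change of 0.05 (SE 0.17, edgeR adjusted p = 0.884). Tnni2 (ENSMUSG00000031097), fast troponin I, had 37.7, 44.7 and 37.5 CPM against 40.2, 54.5 and 30.0 CPM, a log2 fold change of 0.05 (SE 0.16, edgeR adjusted p = 0.874). Neither of these fast forms was past the test. Tnnt3 (ENSMUSG00000061723), fast troponin T, had 70.6, 85.2 and 69.8 CPM against 72.8, 110 and 56.9 CPM, a log2 fold change of 0.08 (SE 0.18, edgeR adjusted p = 0.818). Tnnt1 (ENSMUSG00000064179), slow troponin T, had 61.6, 74.1 and 60.1 CPM against 58.4, 75.1 and 48.7 CPM, a log2 fold change of -0.11 (SE 0.13, edgeR adjusted p = 0.651). All 5-FU groups of these genes spanned or overlapped the PBS range.

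The proportions of troponin isoforms had small differences. Tnni1 made up 68.7% ± 0.277 of troponin I TPM with PBS and 68.4% ± 0.352 with 5-FU (SD, n = 3, exact permutation p = 0.3). Tnnc1 made up 83.4% of troponin C with PBS and 84.6% with 5-FU, with groups that overlapped. Within troponin T, slow Tnnt1 went from 25.8% ± 0.583 to 23.9% ± 0.981 with no overlap, fast Tnnt3 from 26.8% to 28.5% with overlap, and Tnnt2 from 47.4% to 47.6% with overlap. Only the Tnnt1 share reached the smallest exact permutation p of 0.1 among the troponins.

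Ttn (ENSMUSG00000051747) encodes titin, the elastic protein that spans from Z-disc to M-band, and it rose. It had 47.1, 53.6 and 36.5 CPM with PBS and 59.7, 103 and 82.1 CPM with 5-FU. Every 5-FU library was above every PBS library, and replicate 1 was the lowest of the 5-FU libraries. The mean went from 45.7 ± 8.68 to 81.5 ± 21.5 CPM (SD, n = 3), a log2 fold change of 0.83 (SE 0.17, 95% interval 0.45 to 1.21, edgeR adjusted p = 0.0177). The call was kept in 4 of 6 refits that left out 1 library, with adjusted p between 0.0031 and 0.0574. In the deposited TPM, Ttn had 2.67, 3.98 and 3.40 with PBS and 3.11, 5.18 and 4.90 with 5-FU. There the groups overlapped, and limma on log2(TPM + 1) gave a log2 fold change of 0.30 with adjusted p = 0.331. Division by a fixed transcript length would cancel between libraries. Why the TPM and CPM of Ttn differ in this way was not tested. Over all 16 alternatives the adjusted p of Ttn ran from 0.000822 to 0.342.

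The promoters of the called genes Ttn and Ldb3, an adaptor described with the Z-disc, are shown because both genes rose, with motif matches in capitals as above. The window of Ldb3 is that of one of its annotated starts.
Ttn (chr2:76982548-76982797, minus strand): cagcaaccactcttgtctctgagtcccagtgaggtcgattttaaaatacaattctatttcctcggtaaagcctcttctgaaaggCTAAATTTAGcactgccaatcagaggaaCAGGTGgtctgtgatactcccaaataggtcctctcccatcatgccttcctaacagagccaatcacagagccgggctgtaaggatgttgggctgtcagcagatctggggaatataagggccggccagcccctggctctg
Ldb3 (chr14:34588682-34588931, minus strand): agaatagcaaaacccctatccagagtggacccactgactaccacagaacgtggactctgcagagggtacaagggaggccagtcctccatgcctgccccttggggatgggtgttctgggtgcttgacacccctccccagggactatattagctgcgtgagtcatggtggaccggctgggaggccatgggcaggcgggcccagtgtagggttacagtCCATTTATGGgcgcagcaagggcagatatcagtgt
The capitals mark a MEF2 site at -166 and an E-box at -138 in Ttn, and a CArG box at -35 in Ldb3.

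Neb (ENSMUSG00000026950), nebulin, the ruler-like protein of the thin filament, had 15.6, 17.2 and 10.2 CPM with PBS and 16.0, 29.9 and 18.2 CPM with 5-FU. The groups overlapped, and the log2 fold change was 0.56 (SE 0.23, edgeR adjusted p = 0.154). Ryr1 (ENSMUSG00000030592), the calcium release channel, had 68.5, 69.4 and 52.0 CPM with PBS and 79.3, 104 and 74.9 CPM with 5-FU. Its groups did not overlap, and the log2 fold change was 0.44 (SE 0.13, edgeR adjusted p = 0.0587). It was called without 5-FU replicate 3 (edgeR adjusted p = 0.0453) and in 4 of 16 alternatives in all. Ttn, Neb and Ryr1 were the members with the longest transcripts, at 106824, 22489 and 15358 bases.

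The log2 fold change of all genes moved with transcript length in the same direction. Its median was -0.07 for 458 genes up to 1000 bases, -0.03 for 1900 genes from 1000 to 2000 bases, and 0.12 for 252 genes from 10000 to 15000 bases. For the 54 genes above 15000 bases, Ttn, Neb and Ryr1 among them, it was 0.18, and 16.7% of these were called. The share called did not rise steadily with length. It was 8.3% from 4000 to 6000 bases, 6.75% from 8000 to 10000 and 5.95% from 10000 to 15000. In a fit with offsets for length and GC content, chosen after seeing the data, Ttn had a log2 fold change of 0.46 (edgeR adjusted p = 0.0221) and Ryr1 0.28 (edgeR adjusted p = 0.126). In that fit Actn3, Ldb3 and Myh2 kept their calls. The part of transcript length in the rise of Ttn was not tested beyond that fit.

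**Figure D5:**
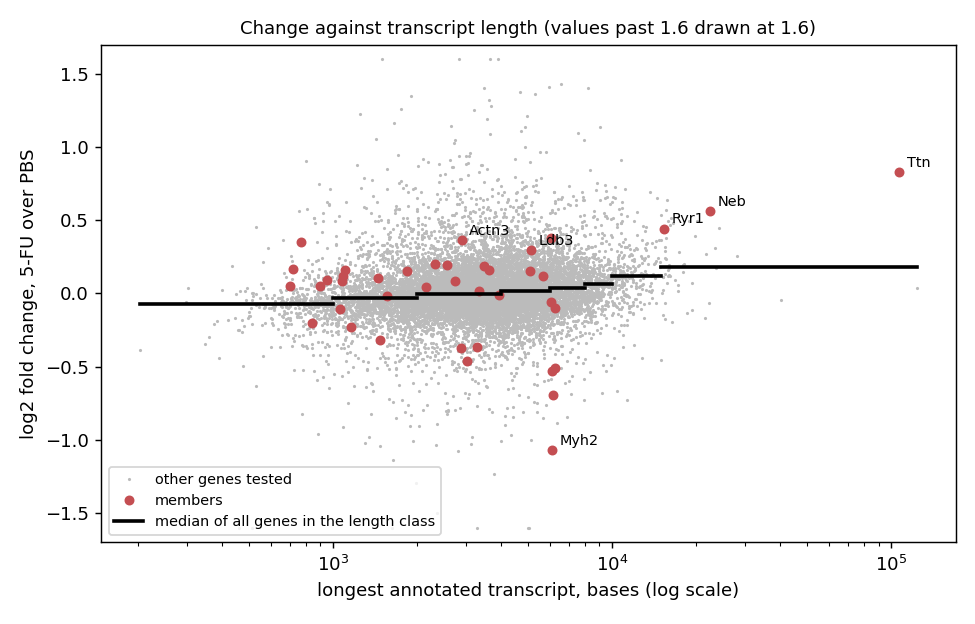
Each small point is a tested gene, the horizontal axis its longest annotated transcript in bases on a log scale, and the vertical axis its log2 fold change, 5-FU over PBS. The members are marked, and the line gives the median of length bins, which goes from -0.07 for the shortest to 0.18 for the longest genes. Ttn, Neb and Ryr1 lie at the right end, above that line.

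Among Z-disc proteins, which cross-link the thin filaments, Actn3 and Ldb3 rose and Actn2 and Tcap were not called. Actn3 (ENSMUSG00000006457), the fast-fibre alpha-actinin, had 364, 400 and 357 CPM with PBS and 456, 576 and 411 CPM with 5-FU. The mean went from 373 ± 23.3 to 481 ± 85.3 CPM (SD, n = 3), a log2 fold change of 0.37 (SE 0.10, edgeR adjusted p = 0.0483). All 5-FU libraries were above all PBS libraries. Ldb3 (ENSMUSG00000021798), the Z-disc adaptor also called Cypher or ZASP, had 64.9, 62.3 and 54.9 CPM against 70.8, 83.9 and 69.1 CPM. Its log2 fold change was 0.30 (SE 0.08, edgeR adjusted p = 0.0495), and here too the groups did not overlap. Both lay just inside the threshold. With 1 library left out, edgeR called Actn3 in 1 of 6 refits (without 5-FU replicate 3, adjusted p from 0.0155 to 0.131 over the 6) and Ldb3 in 0 of 6 (adjusted p from 0.0504 to 0.136).

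Actn2 (ENSMUSG00000052374), the alpha-actinin shared with heart, had 9.88, 9.32 and 7.46 CPM with PBS and 5.30, 8.95 and 5.26 CPM with 5-FU, a log2 fold change of -0.46 (SE 0.19, edgeR adjusted p = 0.171). Actn3 was already 97.8% ± 0.289 of the TPM of both sarcomeric alpha-actinins with PBS and was 98.7% ± 0.18 with 5-FU (SD, n = 3). The share was higher in each 5-FU library, with exact permutation p = 0.1. Tcap, which binds titin at the Z-disc, had 2.14 to 3.33 CPM with PBS and 2.19 to 3.66 CPM with 5-FU.

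The M-band proteins, which tie thick filaments together at their centre, were not called. Myom2 (ENSMUSG00000031461) had 176, 184 and 157 CPM with PBS and 180, 231 and 164 CPM with 5-FU, a log2 fold change of 0.15 (SE 0.10, edgeR adjusted p = 0.415). Myom1, at 6.53 to 11.7 CPM, had a log2 fold change of 0.12.

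Of the other tested genes of calcium handling and the membrane, none was called. Atp2a1 (ENSMUSG00000030730), the fast calcium pump SERCA1, had 80.3, 83.4 and 69.1 CPM with PBS and 79.7, 117 and 69.3 CPM with 5-FU. Casq2 (ENSMUSG00000027861), the calcium-storing calsequestrin that heart also uses, had 73.9, 83.7 and 58.5 CPM against 74.9, 117 and 56.4 CPM. In both the groups overlapped, with log2 fold changes of 0.19 (SE 0.15 for Atp2a1 and 0.21 for Casq2, edgeR adjusted p = 0.480 and 0.611). Casq1 (ENSMUSG00000007122), the fast-fibre calsequestrin, was scarce at 2.91, 2.16 and 1.71 CPM against 2.20, 3.76 and 1.68 CPM, a log2 fold change of 0.16 (SE 0.29, edgeR adjusted p = 0.783). Cacna1s, the voltage sensor, had 15.2 to 20.5 CPM with PBS and 13.3 to 23.7 CPM with 5-FU, and Cav3, the muscle caveolin, 7.07 to 8.16 CPM and 4.93 to 7.58 CPM. Casq2 made up 95.8% of calsequestrin TPM with PBS and 96.0% with 5-FU, with groups that overlapped.

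The muscle enzymes and myoglobin were not called. Eno3 (ENSMUSG00000060600) had 586, 593 and 620 CPM with PBS and 616, 577 and 580 CPM with 5-FU. It was the member with the narrowest interval, -0.12 to 0.07 around a log2 fold change of -0.02 (SE 0.04, edgeR adjusted p = 0.809), and it did not follow the order of the other members over the 5-FU libraries. Ckm (ENSMUSG00000030399), muscle creatine kinase, did follow it, with 20.5, 22.6 and 21.3 CPM against 21.7, 30.1 and 16.9 CPM. Pygm, the glycogen phosphorylase of muscle, had 13.3 to 18.3 CPM with PBS and 10.2 to 15.6 CPM with 5-FU, a log2 fold change of -0.37 (SE 0.15, edgeR adjusted p = 0.159). Pgam2, the muscle phosphoglycerate mutase, had 4.58 to 5.45 CPM with PBS and 3.12 to 6.46 CPM with 5-FU. The oxygen carrier Mb had 33.6 to 41.7 CPM with PBS and 28.4 to 56.0 CPM with 5-FU.

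When each member's log2 CPM was taken relative to the members' median in the same library, a description chosen after the library order was seen, the groups did not overlap for 18 of 40 members. Ttn, Actn3, Ryr1 and Myh2 among them did not overlap in CPM either, while the called gene Ldb3, whose groups did not overlap in CPM, overlapped on this scale. Of these, 9 were above PBS (Ttn, Neb, Ryr1, Actn3, Myh4, Mylpf, Mybph, Atp2a1 and Acta1) and 9 below (Myh2, Myh8, Myh1, Myh7, Actn2, Myl4, Pygm, Actc1 and Pgam2). For Actc1 the relative level was lower by 0.36 on the log2 scale, with SDs of 0.03 and 0.06. For Acta1 it was higher by 0.05, with SDs of 0.01 and 0.02. The differences of Tnni1 and Tnni2 were below 0.01 in size. Over all genes, 309 of 12122 (2.55%) did not overlap on this scale, against 29.3% of genes tested in CPM. Subtracting the members' own median removes their shared spread and centres them, so differences in both directions are built in. The shares of members and of all genes on this scale are not alike in kind, since dividing by the members' level adds that level's spread between libraries to every gene outside the group.

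Other genes of the same pathways were drawn from lists of 126 genes, of which 103 were tested. Of these, 3 rose and 5 fell, a count read beside the 7.14% of all genes called, with a median log2 fold change of 0.02. Among 53 tested other sarcomere genes, 1 rose and 4 fell. Ankrd1, a stretch-responsive protein of the titin filament, fell from 718 ± 37.1 to 537 ± 36.9 CPM (SD, n = 3), a log2 fold change of -0.42 (edgeR adjusted p = 0.00197). Tpm1 (tropomyosin), Pdlim5 and Fhl1 also fell, with log2 fold changes of -0.23, -0.23 and -0.18, and Sgca (alpha-sarcoglycan) rose by 0.39. Of 30 tested excitation-contraction and calcium genes, Asph fell by 0.19 on the log2 scale and none rose. Of 20 tested muscle energy genes, Ak1 (adenylate kinase) and Eno2 rose, both by 0.38. Of these 8, Ankrd1 and Ak1 were called in all 6 refits that left out 1 library, and Fhl1 and Asph in 1 of 6, that without 5-FU replicate 2. The others were called in 2 to 5 of them.

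Among the myogenic regulators and fusion genes described here, Id1 and Cdh15 rose and Id2 fell, read beside the 7.14% of all genes called. Id1, an inhibitor of MyoD family factors, rose by 0.35 on the log2 scale (edgeR adjusted p = 0.0250) and its relative Id2 fell by 0.48 (edgeR adjusted p = 0.0245). With 1 library left out, Id1 and Cdh15 were each called in 2 of 6 refits and Id2 in 3 of 6. Myod1 had means of 200 and 214 CPM, and Myog (myogenin), which drives differentiation, 259 and 327 CPM, with edgeR adjusted p of 0.154 and 0.122. Mymk (myomaker), a membrane protein needed for fusion, had 101 and 133 CPM (edgeR adjusted p = 0.0781) and Mef2c had a log2 fold change of -0.10 (edgeR adjusted p = 0.685). Over the 5-FU libraries Myog had 321, 402 and 258 CPM, which is the order that most members showed. Among the smooth muscle markers Acta2, Tagln and Cnn1, which encode smooth muscle actin, transgelin and calponin and are also made by myoblasts, fell by 0.31, 0.35 and 0.46 on the log2 scale. Acta2 and Tagln kept their calls in all 6 refits that left out 1 library and Cnn1 in 2 of 6.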

How the data were processed

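The data are 6 RNA-seq libraries, 3 of PBS cells and 3 of 5-FU cells, with groups and replicate numbers taken from the sample titles. The authors deposited estimated counts per gene, of which 7.31% to 8.04% per library were not whole numbers within 0.005, and TPM values, which divide by length and by library total, per the file headers. The submitters' processing notes name StringTie 1.3.1 but do not say what it did, and no source used here names the aligner, the counter, the genome build or the annotation. A table of 186 genes deposited by the authors gives mean TPM, log2 fold change, p-value and FDR.

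Counts were rounded and tested with edgeR 4.0.16 in R 4.3.3 (TMM scaling, filterByExpr with a minimum count of 10 and a total of 15, quasi-likelihood F test, two-sided, Benjamini-Hochberg adjustment over all 12135 genes tested). The standard error is the fold change divided by the square root of F, and intervals are 95%. limma 3.58.1 on counts and TPM and DESeq2 1.42.0 served as alternatives. Isoform shares are percentages of a family's summed TPM. The edgeR steps were also run on simulated counts. These were drawn for each gene separately, with no spread shared between genes, so they do not cover the order common to the members. Lengths and GC content came from GENCODE M21 (longest transcript, matched for 99.86% of tested genes) and promoters from RefSeq on GRCm38.p6, which held 34 of the 41 genes. No strand-marking step is described, so reads of antisense genes may be included.

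All 41 genes are accounted for. Values in every library were given for called genes, the 10 with the highest mean TPM and the isoform families, and other genes where a result turns on them. Of the other lists, up to 4 called genes were to be named by size of change, with Myod1, Myog, Mymk and Mef2c. Fhl1, outside that number, was added after its value was seen. The genes, lists and tests were chosen with earlier results of these data known. A result for a gene of these lists is not reported here.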

Additional observations from a re-analysis of the deposited data

How the results depend on the processing

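The number of called sarcomere and excitation-contraction genes, 4 of 40, was 4 with RLE scaling or length and GC offsets and 5 with library size alone. It was 7 with no filter on low counts, 2 with DESeq2 (which gave Myh2 no adjusted p), 2 with limma-voom and 0 at an adjusted p below 0.01 in edgeR, where 13 had an unadjusted p below 0.05. limma on log2(TPM + 1), on log2(TPM + 0.1) and on log2(TPM + 1) with no filter called 0 of them, with 6, 6 and 7 at an unadjusted p below 0.05. Those fits called 528, 513 and 494 of all genes, of which 64.8%, 65.1% and 65.2% were higher against 54.3% in edgeR, and 4 each of the 103 other pathway genes. Of all genes, 861 were called with RLE scaling, 1113 with length and GC offsets and 908 with library size alone. The number was 1045 with no filter on low counts, 885 with DESeq2 and 836 with limma-voom. The share of all genes at an unadjusted p below 0.05 is not given here, so the members' counts at that p have no background. At an adjusted p below 0.01, 239 of all genes and 3 of the other pathway genes remained called, and 15 of the latter were called with length and GC offsets, an alternative chosen after seeing the data. Leaving out 1 library gave 0 to 7 called members, 249 to 656 genes and 2 to 7 other pathway genes, and the cause of these changes was not tested. With the replicate number as a block (replicate block), 13 members, 13 other pathway genes and 1199 of all genes were called. Of these members, 6 were higher (Actn3, Ldb3, Neb, Ryr1, Mylpf and Ttn) and 7 lower (Pygm, Myh2, Myh7, Myh8, Myh1, Myl4 and Actc1). Correlations of same-numbered libraries were -0.00163, 0.0868 and 0.132. Replicates 2 and 3 correlated best with their own number and replicate 1 did not, so the numbers were not taken as pairs. The members' medians ran in the same replicate order in both groups, and whether same-numbered libraries share a batch was not tested. No member's log2 fold change took the opposite sign where either fit called it. The differences between the groups in the shares of Acta1, Myh3 and Actn3, at 4.38, 7.96 and 0.963 percentage points, were 4.42, 7.99 and 1.01 when taken from counts, and 4.10 to 4.57, 7.51 to 8.46 and 0.809 to 1.10 with 1 library left out. Depth limits the scarce genes, such as Mybpc1, Mybpc2, Casq1, Myh2, Myh4 and Tcap. Read sharing between heavy chains limits their separation.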
